A study of Gallus gallus with 8 samples.

Results

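The genes described here encode parts of the mitochondrion: the respiratory chain complexes, the mitochondrial ribosome, the carriers of the inner membrane and the channels and import pore of the outer membrane. They were taken by name. Every gene on the array whose chicken RefSeq symbol begins with NDUF, SDH followed by A to D, UQCR, COX followed by a digit, ATP5, MRPL, MRPS, TIMM, TOMM, SLC25 or VDAC was included, which gave 63 genes read by 138 probes, among 31523 gene entries on the array. By class there were 11 NDUF, 3 SDH, 2 UQCR, 7 COX, 3 ATP5, 13 MRPL, 9 MRPS, 12 SLC25, 2 VDAC and 1 TOMM genes, and 0 TIMM genes. The current RefSeq table holds 230 symbols that follow the same pattern, so the measured genes are a minority of these symbols, set by which array accessions could be matched.

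The arrays measured RNA of DT40, a B cell line from a chicken bursal lymphoma, on a 1-colour Agilent chicken expression array. The genotypes compared were 3 arrays labelled DKO, 2 labelled BCL6KO (deficient in BCL6) and 3 labelled WT. DKO is read here as a deficiency of both IRF4 and BCL6, which the BCL6 values below do not show. DKO-labelled and BCL6KO cells are together called the mutants. IRF4 and BCL6 are transcription factors that act in the germinal centre and plasma cell programs of B cells, and the title of the series concerns antibody secretion without IRF4. The labels do not say how many clones each genotype was taken from, nor whether the arrays of the knockouts came from separate cultures, so the p-values measure the spread between these arrays, which may be technical.

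Mitochondrial respiration passes electrons through complexes I to IV and uses the resulting proton gradient to drive ATP synthase. Most subunits are encoded in the nucleus, made in the cytosol and imported, while a few core subunits are encoded by mitochondrial DNA and made by the mitochondrial ribosome, whose own proteins are nuclear products. Metabolites enter and leave through the VDAC porins of the outer membrane and the SLC25 carriers of the inner membrane, and activated B cells draw on both respiration and these transport steps.

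The labels were checked against the values before any comparison. IRF4 had a mean log2 level of -1.72 on the DKO-labelled arrays, 5.09 on the BCL6KO arrays and 3.01 on the WT arrays, so the DKO-labelled arrays held 3.77% of the WT signal. BCL6 had a mean log2 level of 0.81 on the DKO-labelled arrays, -4.73 on the BCL6KO arrays and 2.56 on the WT arrays. Its probe thus kept 29.7% of the WT signal on the DKO-labelled arrays and 0.639% on the BCL6KO arrays. The BCL6 signal therefore does not show that the DKO-labelled cells lack BCL6. Where the probe lies relative to the deleted part of the gene is not known, nor is whether the DKO label is right. The deposited value table goes against the scanner files: its 3 WT columns correlated at 0.999 each with the scanner files labelled DKO, its 3 DKO columns correlated best, at 0.883 to 0.975, with scanner files labelled WT, and its 2 BCL6KO columns correlated at 0.998 with their own files. The group names below are those of the scanner files, and each direction between DKO and WT rests on them.

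The BCL6KO arrays also stood apart in other ways. They had 75.1% and 79.2% of spots well above background, while DKO-labelled arrays had 65.8% to 67.8% and WT arrays 62.4% to 68.2%, and they were scanned in a session of their own, so scan session and BCL6KO genotype cannot be told apart. The summed level of 11 measured B cell markers (1 being the array's 75th percentile) was 78.8 to 98.6 on the DKO-labelled arrays, 2.72 to 3.37 on the BCL6KO arrays and 175 to 192 on the WT arrays, and PAX5, which defines the B lineage, was well above background on no BCL6KO array. Of 10 measured fibroblast and matrix markers, 9 were well above background on every BCL6KO array, against 4 on every DKO-labelled and 3 on every WT array, with summed levels of 2.56 to 2.98 (DKO), 6.05 to 7.46 (BCL6KO) and 0.447 to 0.475 (WT). The part of these differences in the results below was not tested, and in bulk RNA fewer cells of a type and less RNA per cell cannot be told apart.

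All 63 genes could be tested, and 62 of them were well above background on all 8 arrays. The exception was VDAC1, which was well above background on the 2 BCL6KO arrays and on no other. Levels are log2 signal relative to the array's 75th percentile, and a gene is called higher or lower at a limma adjusted p under 0.05 over all 24136 gene entries tested. The median SD of a gene within a group was 0.056 (DKO, n = 3), 0.176 (BCL6KO, n = 2) and 0.058 (WT, n = 3), so the BCL6KO arrays were the more variable. The fit pools the spread of a gene over the 3 groups. Each SE and p of a comparison with BCL6KO can therefore understate the spread of its 2 arrays.

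In BCL6KO cells against WT cells, 26 of the 63 genes were higher and 17 lower, with 20 not called. Of all gene entries, 69.6% were called, 42% higher and 27.7% lower, so the mitochondrial genes were called about as often as any others. Their median log2 change was 0.27, beside 0.24 over all entries. In DKO-labelled cells against WT cells 21 were higher, 17 lower and 25 not called, beside 52.3% of all entries called, 28.5% higher and 23.7% lower, with a median of 0.05 beside 0.07. In DKO-labelled cells against BCL6KO cells 15 were higher, 26 lower and 22 not called, beside 68.3% of all entries called, 29% higher and 39.4% lower, with a median of -0.19 beside -0.18. As a whole, then, 68.3%, 60.3% and 65.1% of these genes were called in the 3 comparisons, and their medians lay near those of all entries. Large changes were rarer among them. Tested against a minimum fold of 1.5, 10, 2 and 6 were called, beside 8604, 5260 and 8113 of all 24136 entries. These genes were also brighter, with a median log2 level of 3.724 to 4.062 by array, beside -2.375 to -2.132 over all entries. Other differences lie among the classes and single genes.

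The direction of small changes depends on the scaling. With arrays centred on their median in place of the 75th percentile, the median change of all entries moved to -0.05 (BCL6KO minus WT), -0.08 (DKO minus WT) and -0.03 (DKO minus BCL6KO), and the mitochondrial genes split into 15 higher and 27 lower, 13 higher and 25 lower, and 21 higher and 19 lower in the same order. Of all entries, 31.3% were then higher and 37.8% lower in BCL6KO minus WT, and 22.4% and 31.1% in DKO minus WT. In DKO minus BCL6KO the shares were 34.2% and 33.7%. Counts for gene groups are therefore followed by those with median scaling, and printed calls of single genes that were lost with it are marked.

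**Figure D1:**
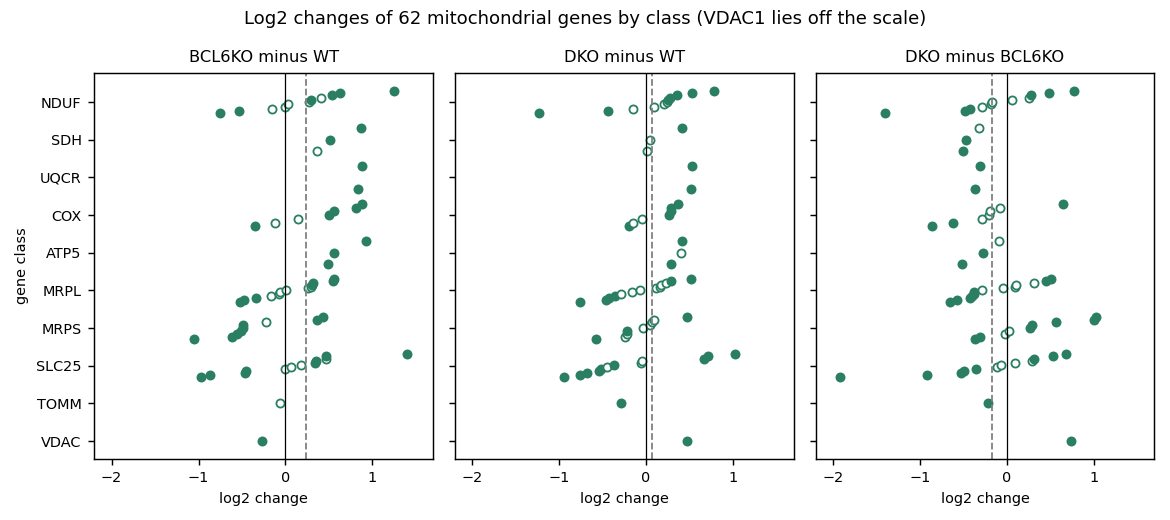
Log2 change of each mitochondrial gene (x axis) by class (y axis) in BCL6KO minus WT, DKO minus WT and DKO minus BCL6KO. Filled points were called and open points were not, the dashed line is the median of all gene entries (0.24, 0.07 and -0.18), and VDAC1 lies off the scale. In BCL6KO minus WT, both UQCR genes and all 3 ATP5 genes lie to the right of the dashed line and 7 of the 9 MRPS genes to its left.

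The voltage-dependent anion channels are the pores through which ATP, ADP and small metabolites cross the outer membrane. VDAC1 had log2 levels of -8.61, -8.79 and -8.89 on the DKO-labelled arrays, 0.47 and 1.17 on the BCL6KO arrays, and -7.76, -7.03 and -8.08 on the WT arrays. Its signal was thus at background in both DKO-labelled and WT cells and clearly above it in BCL6KO cells. It was at least 168-fold higher in BCL6KO than in WT cells and at least 156-fold lower in DKO-labelled than in BCL6KO cells, where each bound uses the dimmest signal well above background on each array of the dim group. A second VDAC1 probe, read separately, gave at least 65.9-fold and at least 61.1-fold. VDAC1 passed the filter on dim probes through the BCL6KO arrays alone, so no p is given with these bounds. VDAC1 counts among the 26 genes higher in BCL6KO minus WT and the 26 lower in DKO minus BCL6KO. Those counts thus include a gene that was tested only because its BCL6KO signal was high. It also counts among the called genes of DKO minus WT, but neither group had a signal above background, so no direction or fold is given for it.

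VDAC2, the other porin measured, had log2 levels of 5.55, 5.55 and 5.33 on the DKO-labelled arrays, 4.71 and 4.75 on the BCL6KO arrays, and 5.01, 4.98 and 5.03 on the WT arrays. The 3 groups did not overlap, and BCL6KO cells, where VDAC1 was high, had the lowest VDAC2 level. VDAC2 was higher by 0.47 ± 0.08 (SE) in DKO-labelled than in WT cells (adjusted p = 0.00216) and by 0.74 ± 0.09 in DKO-labelled than in BCL6KO cells (adjusted p = 0.000313). The call of -0.27 in BCL6KO minus WT was lost with cyclic loess, without BCL6KO replicate 1 (-0.25) and without each WT array in turn (-0.26 to -0.29).

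**Figure D2:**
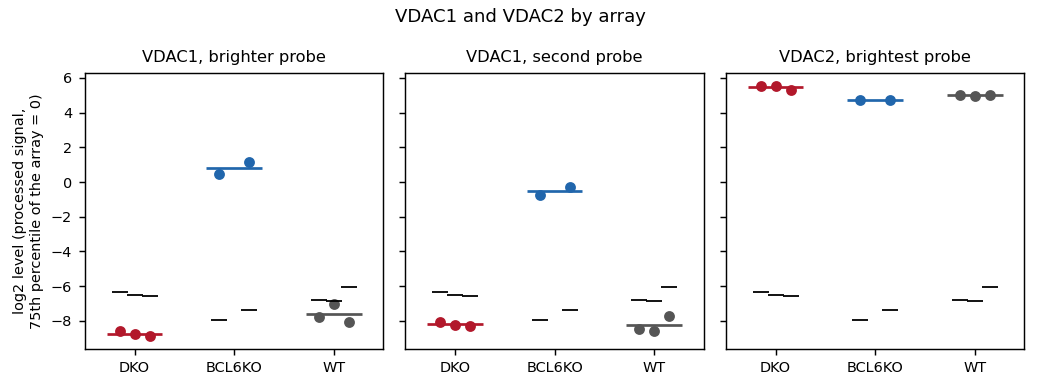
Log2 level (y axis, the array's 75th percentile = 0) of the brighter and the second VDAC1 probe and of VDAC2 on each array of DKO, BCL6KO and WT. Points are arrays, coloured bars are group means and black ticks are the dimmest signal well above background on each array. VDAC1 lies below the ticks on all DKO and WT arrays with both probes, and VDAC2 lies far above them on every array.

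The subunits of the respiratory complexes were called higher more often than lower against WT cells. Leaving aside the assembly factors, 20 subunits of complexes I to IV and ATP synthase were measured. In BCL6KO against WT cells 12 were higher and 2 lower, with a median log2 change of 0.50 beside 0.24 over all entries, and in DKO-labelled against WT cells 12 were higher and 2 lower, with a median of 0.29 beside 0.07. In DKO-labelled against BCL6KO cells 3 were higher and 8 lower, with a median of -0.24 beside -0.18. Against WT the shares higher and lower were 60% and 10% in both mutants. Over all entries they were 42% and 27.7% in BCL6KO minus WT and 28.5% and 23.7% in DKO minus WT. In DKO minus BCL6KO the subunits gave 15% and 40%, beside 29% and 39.4% of all entries. With median scaling the counts were 8 higher and 4 lower in BCL6KO minus WT, 7 and 2 in DKO minus WT, and 4 and 4 in DKO minus BCL6KO. The first 2 comparisons share the WT arrays, so their counts are not independent of each other.

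Complex I takes electrons from NADH. Of its 10 measured subunits, NDUFA9, NDUFS3 and NDUFV1 were higher in BCL6KO than in WT cells and NDUFB8 and NDUFV3 lower. NDUFV3, an accessory subunit of the NADH-binding module, had log2 levels of -1.33, -1.15 and -1.16 on the DKO-labelled arrays, -0.51 and -0.95 on the BCL6KO arrays and 0.01, -0.03 and 0.08 on the WT arrays. Both mutants lay below WT without overlap: the log2 change was -1.23 ± 0.12 in DKO minus WT (2.35-fold, adjusted p = 0.000181) and -0.75 ± 0.14 in BCL6KO minus WT (adjusted p = 0.00253). NDUFV1, a core subunit of the same module, went the other way, by 0.36 in DKO-labelled and 0.54 in BCL6KO cells against WT.

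NDUFA9, an accessory subunit at the joint between the matrix and membrane arms, had log2 levels of 4.15, 4.24 and 4.02 on the DKO-labelled arrays, 3.51 and 3.79 on the BCL6KO arrays, and 3.42, 3.30 and 3.33 on the WT arrays. It was higher by 0.79 ± 0.10 in DKO-labelled than in WT cells (adjusted p = 0.000561). The smaller rise of 0.30 in BCL6KO against WT cells was 0.16 without BCL6KO replicate 2. Its call was lost without each WT array in turn (0.28 to 0.34) and with median scaling. The other NDUFA9 probes gave 0.44, 0.55 and 0.35 in BCL6KO minus WT, all called. NDUFB8, of the membrane arm, had log2 levels of 4.51, 4.52 and 4.58 on the DKO-labelled arrays, 3.77 and 3.75 on the BCL6KO arrays and 4.38, 4.22 and 4.27 on the WT arrays. It was lowest in BCL6KO cells, 0.78 ± 0.07 higher in DKO-labelled than in BCL6KO cells (adjusted p = 0.000113) and gave -0.53 in BCL6KO minus WT (adjusted p = 0.000672). NDUFA12 was higher by 0.52 in DKO-labelled than in WT cells (adjusted p = 0.00742), a call lost with the slide as a fixed block. NDUFA10 was higher in DKO-labelled than in BCL6KO cells (0.28), and NDUFB5 was lower in DKO-labelled than in WT cells (-0.44, adjusted p = 0.0136). NDUFS1, the large iron-sulphur subunit, was called in no comparison (0.03 in BCL6KO minus WT, 0.09 in DKO minus WT and 0.06 in DKO minus BCL6KO).

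NDUFAF2, a chaperone needed to assemble complex I and not part of the finished enzyme, changed more than any measured subunit of the complex in both comparisons with BCL6KO. Its log2 levels were 0.93, 0.99 and 0.97 on the DKO-labelled arrays, 2.12 and 2.60 on the BCL6KO arrays, and 1.15, 1.10 and 1.08 on the WT arrays. Both BCL6KO arrays lay above every other array, and DKO-labelled and WT arrays lay close together. The difference was 1.25 ± 0.14 in BCL6KO minus WT (2.38-fold, adjusted p = 0.000206) and -1.40 ± 0.14 in DKO minus BCL6KO (adjusted p = 0.000128), while DKO minus WT gave -0.15 (adjusted p = 0.346).

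Complex II couples the citric acid cycle to the chain by oxidising succinate. SDHB, its iron-sulphur subunit, had log2 levels of 4.84, 4.97 and 4.94 on the DKO-labelled arrays, 5.35 and 5.49 on the BCL6KO arrays, and 4.94, 4.84 and 4.92 on the WT arrays. SDHD, a membrane anchor, had 4.85, 4.93 and 5.07 on the DKO-labelled arrays, 5.36 and 5.47 on the BCL6KO arrays, and 4.57, 4.60 and 4.45 on the WT arrays. Both subunits were thus highest in BCL6KO cells, by 0.52 ± 0.08 for SDHB (adjusted p = 0.00111) and 0.88 ± 0.09 for SDHD (adjusted p = 0.000188) against WT. SDHD was also higher in DKO-labelled than in WT cells, by 0.41 ± 0.08 (adjusted p = 0.00561), a call lost with the slide as a fixed block, while SDHB gave 0.01 there. SDHAF4, an assembly factor of the complex, was called in no comparison.

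Complex III passes electrons to cytochrome c. UQCRFS1, its Rieske iron-sulphur protein, had log2 levels of 5.56, 5.41 and 5.56 on the DKO-labelled arrays, 5.69 and 5.94 on the BCL6KO arrays, and 5.07, 5.03 and 4.83 on the WT arrays. UQCR11, a small accessory subunit, had 4.57, 4.56 and 4.55 on the DKO-labelled arrays, 4.78 and 5.07 on the BCL6KO arrays, and 4.10, 3.97 and 4.05 on the WT arrays. For both genes the WT arrays were the lowest and the BCL6KO arrays the highest. Against WT, UQCR11 was higher by 0.88 ± 0.10 in BCL6KO (adjusted p = 0.000209) and by 0.52 ± 0.09 in DKO-labelled cells (adjusted p = 0.00214), and UQCRFS1 by 0.84 ± 0.11 (adjusted p = 0.000635) and 0.53 ± 0.10 (adjusted p = 0.00444).

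Complex IV, cytochrome c oxidase, reduces oxygen. Its measured nuclear subunits COX4I1 and COX7A2 were higher in BCL6KO than in WT cells, by 0.56 (adjusted p = 0.00497) and 0.50 (adjusted p = 0.00438). Both calls were lost with median scaling, and COX6C was not called in any comparison. A second COX4I1 probe gave 0.98 in BCL6KO minus WT, called, and 0.27 in DKO minus WT, not called. In DKO minus BCL6KO it gave -0.71, called, where the brightest probe gave -0.19, not called. In DKO-labelled against WT cells COX4I1 gave 0.37 and COX7A2 0.29. Those calls were lost with median scaling, with which 0 of the 7 COX genes were higher in DKO minus WT, and without single arrays: COX4I1 without each DKO array, WT replicate 2 or WT replicate 3 (0.30 to 0.39), and COX7A2 without any one of the 6 arrays (0.27 to 0.32). Among the assembly factors, COX10, which makes the haem O precursor of the enzyme's haem A, had log2 levels of 2.05, 2.05 and 2.10 on the DKO-labelled arrays, 2.81 and 3.05 on the BCL6KO arrays, and 2.14, 2.08 and 2.14 on the WT arrays, a rise of 0.81 ± 0.09 in BCL6KO minus WT (adjusted p = 0.000177) and a change of -0.86 ± 0.09 in DKO minus BCL6KO (adjusted p = 0.000142). COX19, which helps deliver copper to the enzyme, was higher by 0.88 ± 0.06 in BCL6KO than in WT cells (adjusted p = 2.76e-05). COX16 ran the other way, with log2 levels of 2.47, 2.37 and 2.38 on the DKO-labelled arrays, 1.67 and 1.86 on the BCL6KO arrays, and 2.14, 2.08 and 2.14 on the WT arrays, and was 0.64 ± 0.08 higher in DKO-labelled than in BCL6KO cells (adjusted p = 0.000452). COX15, which converts haem O to haem A, fell by 0.20 in DKO-labelled against WT cells, a call lost without DKO replicate 1, DKO replicate 2 or any one WT array (-0.17 to -0.21).

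ATP synthase makes ATP from the proton gradient. ATP5F1AZ, its alpha subunit encoded on the Z chromosome, had log2 levels of 5.61, 5.57 and 5.59 on the DKO-labelled arrays, 6.06 and 6.15 on the BCL6KO arrays, and 5.30, 5.04 and 5.19 on the WT arrays. The groups did not overlap, and the gene was higher than in WT by 0.92 ± 0.09 in BCL6KO (adjusted p = 0.000125) and 0.41 ± 0.08 in DKO-labelled cells (adjusted p = 0.00492). A near-identical W-linked copy could share the probe's signal. ATP5B, the catalytic beta subunit, gave 0.56 ± 0.07 in BCL6KO minus WT (adjusted p = 0.000469) and 0.29 ± 0.06 in DKO minus WT (adjusted p = 0.00857, lost with median scaling). ATP5I, the membrane subunit e, gave 0.49 in BCL6KO minus WT (adjusted p = 0.0297), a call lost with median scaling and without BCL6KO replicate 2 (0.21) or any one WT array (0.46 to 0.53).

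**Figure D3:**
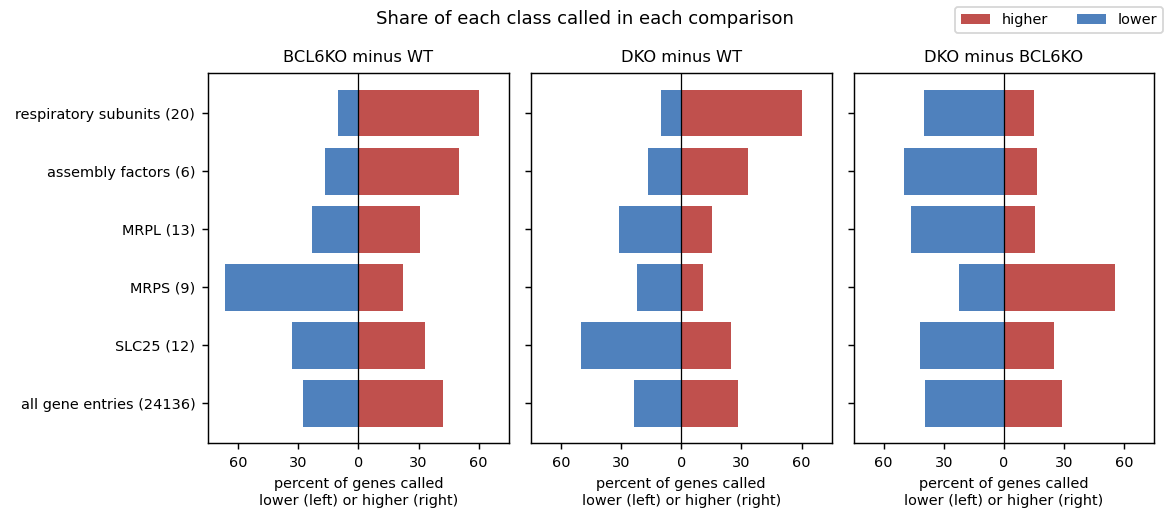
Percent of the genes of each class called lower (bars to the left) or higher (bars to the right) in BCL6KO minus WT, DKO minus WT and DKO minus BCL6KO, with the number of genes tested in brackets and all gene entries as the bottom row. Of the respiratory subunits, 60% were called higher in both comparisons with WT, beside 42% and 28.5% of all entries. Of the MRPS genes, 66.7% were called lower in BCL6KO minus WT, beside 27.7%. Each gene is counted by its brightest probe, also MRPS7, whose probes disagreed in direction.

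The mitochondrial ribosome reads the few messages of mitochondrial DNA. The MRPS names mark its small subunit, with MRPS30 as an exception given below. Of 9 MRPS genes, 6 were lower and 2 higher in BCL6KO minus WT (66.7% and 22.2%, beside 27.7% and 42% of all entries). Their median log2 change was -0.49 beside 0.24 over all entries, and 7 were lower and 0 higher with median scaling. The 6 include MRPS7, whose probes disagreed in direction, and MRPS33, whose second probe was not called. In DKO-labelled against WT cells 1 MRPS gene was higher and 2 lower (11.1% and 22.2%, beside 28.5% and 23.7%), with a median of -0.04. In DKO-labelled against BCL6KO cells 5 were higher and 2 lower (55.6% and 22.2%, beside 29% and 39.4%), with a median of 0.26. With median scaling the last 2 comparisons gave 1 higher and 4 lower, and 6 and 1. MRPS11 had log2 levels of 4.95, 4.81 and 4.92 on the DKO-labelled arrays, 3.72 and 4.05 on the BCL6KO arrays, and 5.01, 4.92 and 4.87 on the WT arrays. DKO-labelled and WT arrays overlapped, and both BCL6KO arrays lay below them, with a log2 change of -1.05 ± 0.11 against WT (2.07-fold, adjusted p = 0.000198). MRPS17 had 4.36, 4.27 and 4.34 on the DKO-labelled arrays, 3.23 and 3.36 on the BCL6KO arrays, and 3.90, 3.89 and 3.79 on the WT arrays. Against WT it fell by 0.56 ± 0.08 in BCL6KO (adjusted p = 0.000611) and rose by 0.47 ± 0.07 in DKO-labelled cells (adjusted p = 0.00114), so that DKO minus BCL6KO came to 1.03 ± 0.08 (adjusted p = 3.6e-05).

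MRPS5, MRPS18C and MRPS33 were lower in BCL6KO than in WT cells, with log2 changes of -0.52, -0.49 and -0.48, and MRPS6 was not called in any comparison. A second MRPS33 probe gave -0.05 in BCL6KO minus WT, not called. The genes on the higher side were MRPS30, which in mammals belongs to the large subunit despite its name (0.43 ± 0.06, adjusted p = 0.000825, lost with median scaling), and MRPS26 (0.36, lost with median scaling, without BCL6KO replicate 2 at 0.18, and without WT replicate 2 or 3 at 0.36 and 0.32). MRPS7 gave -0.58 in DKO minus WT and -0.61 in BCL6KO minus WT with its brightest probe, both called, but its other 2 probes were called higher in BCL6KO than in WT cells, at 0.29 and 0.25, and the call was lost in BCL6KO minus WT when the probes were averaged. Its direction in BCL6KO cells is therefore unsettled, while in DKO-labelled cells all 3 probes were lower (-0.58, -0.21 and -0.33).

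The large subunit was mixed. Of 13 MRPL genes, 4 were higher and 3 lower in BCL6KO than in WT cells, 2 higher and 4 lower in DKO-labelled than in WT cells, and 2 higher and 6 lower in DKO-labelled than in BCL6KO cells. With median scaling these became 2 higher and 7 lower, 1 and 7, and 4 and 5. Before that scaling the shares were 30.8% and 23.1%, 15.4% and 30.8%, and 15.4% and 46.2%. Over all entries they were 42% and 27.7%, 28.5% and 23.7%, and 29% and 39.4%. MRPL50 had log2 levels of 3.08, 3.08 and 2.90 on the DKO-labelled arrays, 3.02 and 3.10 on the BCL6KO arrays, and 2.58, 2.47 and 2.46 on the WT arrays, so that both mutants lay above WT, by 0.52 (DKO) and 0.56 (BCL6KO). A second MRPL50 probe gave 0.47 (DKO) and 0.97 (BCL6KO) against WT. In DKO minus BCL6KO it gave -0.50, called, where the brightest probe gave -0.04, not called. MRPL53 lay below WT in both mutants, at 2.92, 2.90 and 2.89 on the DKO-labelled arrays, 2.97 and 3.40 on the BCL6KO arrays, and 3.72, 3.62 and 3.64 on the WT arrays. Its changes against WT were -0.76 ± 0.11 in DKO-labelled (adjusted p = 0.00115) and -0.48 ± 0.12 in BCL6KO cells (adjusted p = 0.0118). MRPL45, which in mammals helps to anchor the ribosome to the inner membrane, was lower than WT in both mutants (-0.43 in DKO minus WT and -0.52 in BCL6KO minus WT). MRPL15 fell by 0.66 ± 0.09 in DKO-labelled against BCL6KO cells (adjusted p = 0.000854), and MRPL51 was 0.51 ± 0.08 higher there (adjusted p = 0.00136). MRPL28 and MRPL37 were higher in BCL6KO than in WT cells (0.31, lost with median scaling, and 0.54), MRPL3 was lower in DKO-labelled than in WT cells (-0.47), and MRPL32 was called in DKO minus BCL6KO alone (-0.58). The brightest MRPL38 probe was also called there alone (-0.42). Its other probes were called in every comparison, with 0.48 and 0.37 in BCL6KO minus WT and -0.24 each in DKO minus WT. MRPL21 was higher in DKO-labelled than in BCL6KO cells with its brightest probe (0.45), while its other probes gave 0.04 and 0.06, not called. MRPL48 was called in no comparison, nor was MRPL23 with its brightest probe, though another MRPL23 probe was called in BCL6KO minus WT (0.32).

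The SLC25 carriers move metabolites across the inner membrane. Of 12 SLC25 genes, 4 were higher and 4 lower in BCL6KO than in WT cells, 3 higher and 6 lower in DKO-labelled than in WT cells, and 3 higher and 5 lower in DKO-labelled than in BCL6KO cells. With median scaling these became 1 higher and 5 lower, 3 and 8, and 5 and 5. Before that scaling the shares were 33.3% and 33.3%, 25% and 50%, and 25% and 41.7%. Over all entries they were 42% and 27.7%, 28.5% and 23.7%, and 29% and 39.4%. SLC25A14, whose probes disagreed in direction, is counted among the 4 higher in BCL6KO minus WT and the 5 lower in DKO minus BCL6KO.

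Of the carriers that exchange ATP and bring in phosphate for ATP synthase, SLC25A6 and SLC25A3 were highest in DKO-labelled cells. SLC25A6, an ADP/ATP carrier, had log2 levels of 4.86, 4.95 and 5.06 on the DKO-labelled arrays, 4.33 and 4.21 on the BCL6KO arrays, and 3.90, 3.99 and 3.91 on the WT arrays, a difference of 1.02 ± 0.08 in DKO minus WT (2.03-fold, adjusted p = 4.82e-05) and 0.69 ± 0.09 in DKO minus BCL6KO (adjusted p = 0.000459). Its paralog SLC25A4 was called in no comparison with its brightest probe. Another SLC25A4 probe gave -0.37 in BCL6KO minus WT and 0.26 in DKO minus BCL6KO, both called. Near-identical paralogs may share probe signal. SLC25A3, the phosphate carrier, had 5.90, 5.94 and 5.94 on the DKO-labelled arrays, 5.67 and 5.56 on the BCL6KO arrays, and 5.30, 5.25 and 5.25 on the WT arrays, and was 0.66 ± 0.06 higher in DKO-labelled than in WT cells (adjusted p = 0.000108). SLC25A1, the citrate carrier, gave 0.71 in DKO minus WT (adjusted p = 0.00881), a call lost with quantile normalization and with both normexp backgrounds.

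The carriers SLC25A15, SLC25A36, SLC25A32 and SLC25A22 were lower than WT in both mutants. SLC25A15, the ornithine carrier, had log2 levels of 0.62, 0.64 and 0.63 on the DKO-labelled arrays, 0.48 and 0.58 on the BCL6KO arrays, and 1.37, 1.34 and 1.48 on the WT arrays, with changes of -0.77 ± 0.06 (DKO, adjusted p = 7.66e-05) and -0.87 ± 0.07 (BCL6KO, adjusted p = 5.57e-05). SLC25A36, a pyrimidine nucleotide carrier, had 2.13, 1.94 and 1.96 on the DKO-labelled arrays, 1.97 and 1.48 on the BCL6KO arrays, and 2.73, 2.67 and 2.69 on the WT arrays, with changes of -0.68 ± 0.13 (DKO, adjusted p = 0.00433) and -0.97 ± 0.15 (BCL6KO, adjusted p = 0.00102). SLC25A32, which carries folate, changed by -0.94 ± 0.12 in DKO-labelled cells (adjusted p = 0.000685) and by -0.45 in BCL6KO cells, the BCL6KO call being lost without any one WT array (-0.44 to -0.46). SLC25A22, a glutamate carrier, gave -0.54 in DKO minus WT and -0.47 in BCL6KO minus WT, both called.

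SLC25A46, an outer membrane member of the family linked to mitochondrial fission, fell by 0.92 ± 0.18 in DKO-labelled against BCL6KO cells (adjusted p = 0.00351), and SLC25A13, the aspartate/glutamate carrier, was lower in DKO-labelled cells than in WT (-0.37) and BCL6KO cells (-0.36). The probes of SLC25A14 disagreed: in BCL6KO minus WT they gave 0.47, 0.62 and -0.93, all called, and in DKO minus BCL6KO -0.53, -0.70 and 1.11, so no direction is given. NDUFA5 was similar, since its brightest probe was not called in BCL6KO minus WT (0.41) and 2 other probes were lower (-0.69 and -0.78). Of 46 genes with several probes, all probes had the same sign for 38, 39 and 39 genes in BCL6KO minus WT, DKO minus WT and DKO minus BCL6KO.

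TOMM7, a small subunit of the outer membrane import pore and the only import gene that fits the names, had log2 levels of 5.19, 5.14 and 5.24 on the DKO-labelled arrays, 5.34 and 5.47 on the BCL6KO arrays, and 5.49, 5.46 and 5.47 on the WT arrays. It fell by 0.28 ± 0.06 in DKO-labelled against WT cells (adjusted p = 0.00849), a call lost with the slide as a fixed block.

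**Figure D4:**
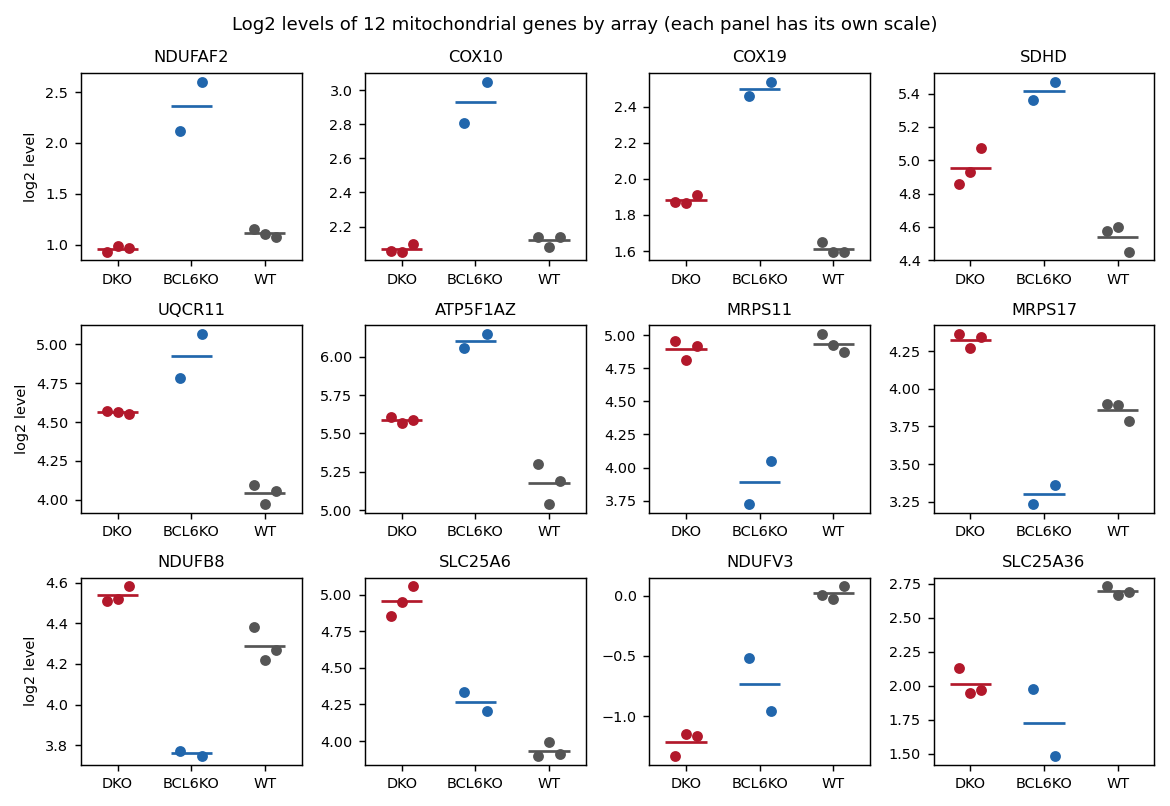
Log2 level (y axis, a scale of its own in each panel) of 12 mitochondrial genes on each array of DKO, BCL6KO and WT (x axis), with bars at the group means. NDUFAF2, COX10 and COX19 are high on both BCL6KO arrays, MRPS11, MRPS17 and NDUFB8 low on them, SLC25A6 is highest on the DKO arrays, and NDUFV3 and SLC25A36 are below WT in both mutants.

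DKO-labelled and WT arrays shared 2 slides. Within those slides the median DKO minus WT difference over the 63 genes was 0.057 and 0.012, beside 0.087 and 0.073 over all entries. With the slide as a fixed block, 27 of the 63 genes were called in DKO minus WT, 14 higher and 13 lower, in place of 38. Calls over all entries fell as well, to 25.2% higher and 20.9% lower, in place of 28.5% and 23.7%. BCL6KO arrays were on slides of their own.

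Genes of the same pathways that the names leave out were measured too, from lists of general knowledge: 70 genes in all. Each list is small, and its counts are a description to be read beside all entries, of which 42% were higher and 27.7% lower in BCL6KO minus WT, 28.5% and 23.7% in DKO minus WT, and 29% and 39.4% in DKO minus BCL6KO. The counts also shift with the scaling, so those with median scaling follow each list. All entries shift with it too, to 31.3% higher and 37.8% lower, 22.4% and 31.1%, and 34.2% and 33.7% in the same order. Assembly factors and carriers of the respiratory chain (10 of 33 listed) were 4 higher and 2 lower in BCL6KO minus WT, 2 and 3 in DKO minus WT, and 3 and 4 in DKO minus BCL6KO. With median scaling they were 3 and 5, 1 and 4, and 4 and 3. ACAD9, which with NDUFAF2 serves complex I assembly, had log2 levels of 3.55, 3.42 and 3.46 on the DKO-labelled arrays, 4.40 and 4.17 on the BCL6KO arrays, and 3.32, 3.19 and 3.28 on the WT arrays, with a change of 1.03 ± 0.09 in BCL6KO minus WT (adjusted p = 8.83e-05). TMEM70, an assembly factor of ATP synthase, fell by 1.10 ± 0.10 in DKO-labelled against WT cells (adjusted p = 9.55e-05) and gave -0.11 in BCL6KO minus WT (adjusted p = 0.383). ETFDH, which feeds electrons to ubiquinone, was 0.46 higher in DKO-labelled than in WT cells. SURF1, a complex IV assembly factor, fell by 0.62 in BCL6KO against WT cells.

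The citric acid cycle and pyruvate entry (16 of 26) gave 5 higher and 3 lower in BCL6KO minus WT, 7 and 4 in DKO minus WT, and 6 and 4 in DKO minus BCL6KO. With median scaling the balance against WT turned round, as it did over all entries, to 3 higher and 8 lower and 4 and 5. DKO minus BCL6KO then gave 6 and 2. IDH3A, a subunit of the NAD-linked isocitrate dehydrogenase, and PDHB, of pyruvate dehydrogenase, were higher by 0.69 and 0.68 in DKO-labelled than in WT cells, while IDH3B gave -0.36 there and -0.60 in BCL6KO minus WT, both called. SUCLA2, of succinyl-CoA synthetase, was higher by 0.79 in BCL6KO than in WT cells, and DLD fell by 0.68 in DKO-labelled against BCL6KO cells. FH, fumarase, fell by 0.43 in DKO-labelled against WT cells, a call lost with the slide as a fixed block.

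Maintenance and transcription of mitochondrial DNA (5 of 23) gave 0 higher and 4 lower in BCL6KO minus WT, 1 and 1 in DKO minus WT, and 3 and 1 in DKO minus BCL6KO, and with median scaling 0 and 5, 1 and 4, and 3 and 1. TFAM, which packages and transcribes mitochondrial DNA, had log2 levels of 3.84, 3.79 and 3.84 on the DKO-labelled arrays, 2.82 and 3.08 on the BCL6KO arrays, and 4.03, 3.86 and 3.92 on the WT arrays, with a change of -0.99 ± 0.10 in BCL6KO minus WT (adjusted p = 0.000126). MTERF3 fell by 1.04 ± 0.06 in DKO-labelled against WT cells (adjusted p = 1.78e-05) and gave -0.04 in BCL6KO minus WT (adjusted p = 0.644). TK2, a nucleoside kinase of mitochondria, was 0.51 higher in DKO-labelled than in WT cells. Translation factors and tRNA synthetases (7 of 29) gave 1 higher and 4 lower, 0 and 5, and 2 and 2 in the same 3 comparisons, and with median scaling 0 and 5, 0 and 6, and 2 and 2. EARS2, the glutamyl-tRNA synthetase of mitochondria, had log2 levels of 1.12, 1.28 and 1.36 on the DKO-labelled arrays, -0.87 and -0.32 on the BCL6KO arrays, and 1.68, 1.75 and 1.76 on the WT arrays, with changes of -2.33 ± 0.16 in BCL6KO minus WT (adjusted p = 2.65e-05) and 1.85 ± 0.16 in DKO minus BCL6KO (adjusted p = 8.47e-05). MTO1, a tRNA modification enzyme, fell by 0.58 in DKO-labelled against WT cells. IARS2, the isoleucyl-tRNA synthetase, fell by 0.58 in DKO-labelled against BCL6KO cells, and its call of 0.24 in BCL6KO minus WT turned to -0.05 with median scaling and was lost without BCL6KO replicate 2 (0.22) or any one WT array (0.23 to 0.26).

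Import and folding genes (14 of 31) gave 6 higher and 2 lower in BCL6KO minus WT, 1 and 1 in DKO minus WT, and 3 and 5 in DKO minus BCL6KO. Median scaling gave 2 and 5, 1 and 3, and 5 and 4. TRAP1, the mitochondrial HSP90, was 0.76 ± 0.09 higher in BCL6KO than in WT cells (adjusted p = 0.000335) and gave -1.03 ± 0.09 in DKO minus BCL6KO (adjusted p = 8.32e-05). Its change of -0.27 in DKO minus WT was a call lost without any one of the 6 arrays (-0.25 to -0.29). SPG7, a protease subunit, was 0.48 higher in DKO-labelled than in WT cells. ROMO1 gave -0.43 in BCL6KO minus WT, a call lost without BCL6KO replicate 1 (-0.22), WT replicate 1 (-0.37) or WT replicate 2 (-0.44), and 0.45 in DKO minus BCL6KO, lost without BCL6KO replicate 1 (0.24), DKO replicate 1 (0.43) or DKO replicate 3 (0.44). Genes of mitochondrial dynamics and mitophagy (6 of 23) gave 1 higher and 2 lower, 1 and 2, and 2 and 2 in the same order, and with median scaling 1 and 5, 1 and 2, and 3 and 1. MFN1, which fuses outer membranes, had log2 levels of 2.35, 2.33 and 2.33 on the DKO-labelled arrays, 3.76 and 3.67 on the BCL6KO arrays, and 3.14, 3.11 and 3.10 on the WT arrays, a difference of 0.60 ± 0.06 in BCL6KO minus WT (adjusted p = 0.000162) and -0.78 ± 0.06 in DKO minus WT (adjusted p = 3.46e-05). APOOL, a protein of the cristae, was 0.58 higher in DKO-labelled than in WT cells. BNIP3L, a mitophagy receptor, fell by 1.55 ± 0.07 in BCL6KO against WT (adjusted p = 2.9e-06) and was 1.69 ± 0.07 higher in DKO-labelled than in BCL6KO cells (adjusted p = 2.29e-06).

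Regulators of mitochondrial biogenesis (12 of 19) gave 6 higher and 4 lower in BCL6KO minus WT, 1 and 3 in DKO minus WT, and 5 and 6 in DKO minus BCL6KO. With median scaling these were 5 and 5, 1 and 5, and 5 and 6. Before that scaling, the 6 higher and the 6 lower include PPARGC1A, which passed the filter on dim probes through the BCL6KO arrays alone. PPARGC1A, the coactivator PGC-1alpha, was well above background on the BCL6KO arrays alone, at -4.72 and -4.25, against -8.37, -8.57 and -8.68 on the DKO-labelled arrays and -8.86, -8.95 and -8.12 on the WT arrays, so it was at least 4.25-fold higher in BCL6KO than in WT and at least 3.95-fold lower in DKO-labelled than in BCL6KO cells. PPARA, a nuclear receptor of fatty acid oxidation, had log2 levels of -8.53, -8.71 and -8.81 on the DKO-labelled arrays, where it was not above background, -2.12 and -2.54 on the BCL6KO arrays, and -5.29, -4.96 and -5.20 on the WT arrays. It was 2.82 ± 0.17 higher in BCL6KO than in WT cells (adjusted p = 1.13e-05), at least 2.50-fold lower in DKO-labelled than in WT cells and at least 17.6-fold lower than in BCL6KO cells. NRF1, which binds promoters of respiratory genes, fell by 0.78 ± 0.08 in BCL6KO against WT cells (adjusted p = 0.000189), and GABPA and GABPB1, the subunits of NRF2, were lower too (-0.50 and -1.32). In DKO minus WT these 3 gave 0.04, -0.08 and -0.17, none called.

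The deacetylase SIRT3 was 1.39 ± 0.07 higher in BCL6KO than in WT cells (adjusted p = 5.78e-06) and 0.49 higher in DKO-labelled than in WT cells, while SIRT1 gave 0.48 and -0.29 in the same comparisons, with the BCL6KO call lost with median scaling and the DKO call with the slide as a fixed block. MYC was 0.95 ± 0.09 higher in BCL6KO than in WT cells (adjusted p = 8.67e-05), and PPARD 1.52 ± 0.14 higher (adjusted p = 0.000108). CREB1 was lower than WT in both mutants (-0.31 in DKO minus WT and -0.59 in BCL6KO minus WT). PRKAA1, a catalytic subunit of the AMP-activated kinase, was not called against WT in either mutant with its brightest probe. With its probes averaged it was called higher in BCL6KO minus WT (0.376). In DKO minus BCL6KO, CREB1 gave 0.28 and PRKAA1 0.32, both called, but both changed sign when the probes of a gene were averaged, and the CREB1 call was lost without any one DKO array (0.28 each). ESRRG was not called in any comparison.

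**Figure D5:**
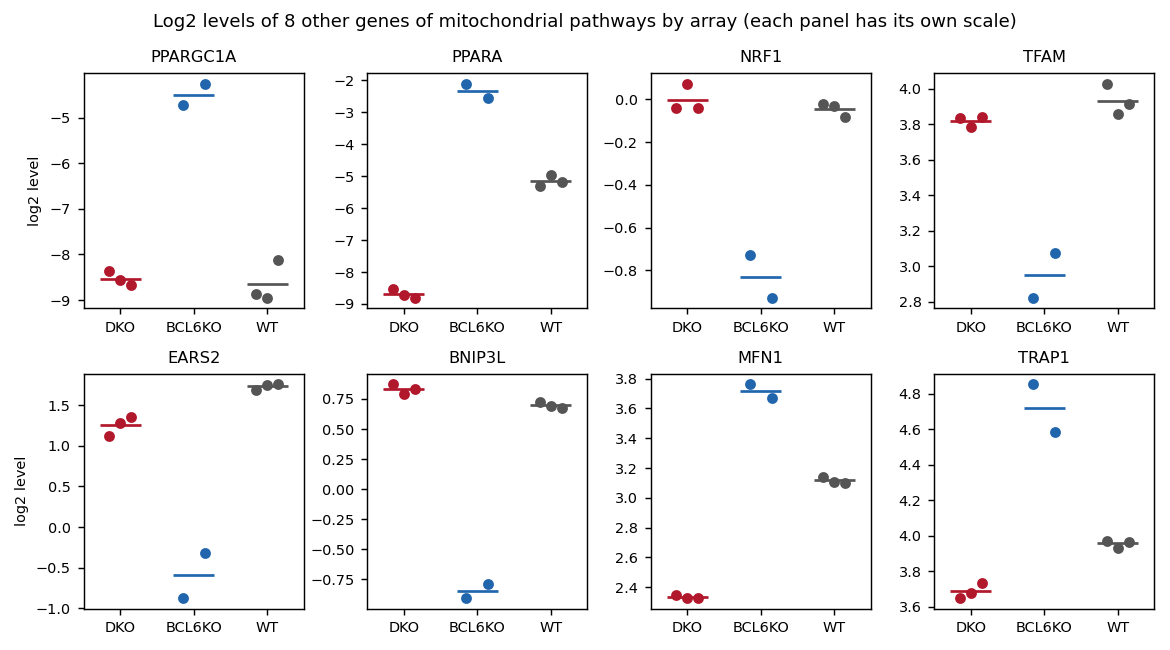
Log2 level (y axis, a scale of its own in each panel) of 8 genes of mitochondrial pathways on each array of DKO, BCL6KO and WT (x axis), with bars at the group means. PPARGC1A and PPARA are highest on the BCL6KO arrays, NRF1, TFAM, EARS2 and BNIP3L lowest on them, and MFN1 and TRAP1 are highest on the BCL6KO arrays and lowest on the DKO arrays.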

How the data were processed

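RNA of 8 DT40 arrays in 3 groups was read from the authors' deposited scanner files, whose gProcessedSignal and gMedianSignal intensity values come, per the file headers, from Agilent Feature Extraction 10.7.1.1 (DKO, WT) and 10.7.3.1 (BCL6KO). The authors' deposited value table holds normalized intensity values on a linear scale. The submitters' processing notes name limma and R 2.12.0, with no order of steps. The table's columns labelled BCL6KO and DKO share 1 distribution (median 228) and those labelled WT another (median 225.1). Its DKO and WT columns did not match the scanner files of those labels, so it was not used in any comparison.

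Control spots were left out and flagged outlier spots set to missing. log2 of gProcessedSignal was taken minus the array's 75th percentile. Probes well above background on at least 2 of 8 arrays were kept, with the brightest probe for each gene entry, leaving 24136 of 31523 entries. Accessions were matched to RefSeq symbols (10857 probes, 5005 symbols). limma 3.58.1 in R 4.3.3 fitted 1 mean per group with Benjamini-Hochberg adjustment over all entries, checked on simulated data. The number of arrays limits the precision, and no spot was saturated.

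The genes and lists were chosen with earlier results of these data known. Named were the VDAC and SDH genes, per comparison the 6 largest called changes in each direction without overlap between groups, the extremes of each class with at least 4 genes, genes whose probes were called in opposite directions or that were measured in one group alone, the largest rise and fall of each pathway list, and every regulator. Other genes are named for completeness, after their values were seen. Same-numbered arrays did not deviate together (r -0.059 to 0.044), and the main fit did not pair them. The deviations of the 2 BCL6KO arrays mirror each other by construction, so r cannot show whether the numbers mark shared cultures. Alternatives were other scalings and backgrounds, filters, probe averaging, a minimum fold of 1.5, a fit of the 2 groups compared alone, array weights, blocks and leaving out each array. Sequence features were not analysed here, and 1 gene that the rule names is not reported here.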

Additional observations from a re-analysis of the deposited data

How the results depend on the processing

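Of the 43, 38 and 41 mitochondrial genes called in BCL6KO minus WT, DKO minus WT and DKO minus BCL6KO, 31, 29 and 31 stayed called under all 5 other scalings and backgrounds, and 37, 29 and 34 without each array in turn; no called mitochondrial gene reversed under any alternative run. Testing against a minimum fold of 1.5 left 10 called (8 higher, 2 lower), 2 (1 and 1) and 6 (2 and 4). Of all entries, that test called 22.5% higher and 13.2% lower, 11.9% and 9.91%, and 14% and 19.6%. These are larger shares than among the mitochondrial genes. Median scaling gave 15 higher and 27 lower with a median of -0.0293 in BCL6KO minus WT, 13 higher with a median of -0.0998 in DKO minus WT, and a median of -0.0440 in DKO minus BCL6KO. It changed the share of called entries that were higher, over all entries, to 45.3% in place of 60.3%, 41.8% in place of 54.6% and 50.3% in place of 42.4%. In BCL6KO minus WT the median was 0.0975 with quantile normalization, 0.104 and 0.1046 with normexp on the signals as deposited and with aberrant background replaced, and 0.12 with the mean of a gene's probes. Over all entries the medians were 0.0367, 0.0222, 0.0241 and 0.2552 in the same order. Array weights gave 32 called, 19 higher and 13 lower, in BCL6KO minus WT, where 28.1% of all entries were then higher and 21.4% lower. In DKO minus BCL6KO they gave 25 called, 9 higher and 16 lower, beside 21.9% and 25.2% of all entries. Without each WT array in turn, BCL6KO minus WT had 37 to 39 called, beside 15321 to 15646 of all entries. DKO minus WT had 30 to 34 called without each array in turn, beside 10775 to 11118. Without each DKO array in turn, DKO minus BCL6KO had 35 to 38 called, beside 15056 to 15211. Over all arrays left out, the median ran from 0.0641 (without BCL6KO replicate 2) to 0.2758 in BCL6KO minus WT. It ran from 0.03 to 0.06 in DKO minus WT. In DKO minus BCL6KO it ran from -0.3068 (without BCL6KO replicate 1) to -0.0469 (without BCL6KO replicate 2). The replicate block gave 37, 32 and 31 called. Of all 24136 entries it called 15322, 11320 and 14887, in place of 16807, 12620 and 16491. Whether same-numbered arrays share more than a number is not known. Among pathway genes, IARS2 changed sign in BCL6KO minus WT with median scaling, to -0.0544. With the mean of a gene's probes, PRKAA1 changed sign to 0.376 in BCL6KO minus WT, called there though not in the main fit. In DKO minus BCL6KO, PRKAA1 changed sign to -0.145 and CREB1 to -0.0710. The cause of these changes was not tested. Signal over background limits VDAC1, PPARGC1A and PPARA to lower bounds.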

Other observations

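The deposited value table, whose DKO and WT columns do not follow the scanner files of those labels, gives VDAC1 the same contrast between BCL6KO and the rest. On a log2 scale its linear intensities for the brighter probe were 1.80, 3.98 and 1.68 in the columns labelled DKO, 11.68 and 12.37 in those labelled BCL6KO, and 2.35, 2.46 and 2.31 in those labelled WT. For the second probe they were 3.25, 3.69 and 4.54 (DKO), 10.39 and 10.89 (BCL6KO), and 3.83, 3.84 and 3.74 (WT). Which arrays the columns labelled DKO hold is unknown, and the table's WT columns have a distribution of their own.

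Of the genes next to VDAC1 in RefSeq order that were measured, SAR1B gave -0.75, PPP2CA 0.12, SKP1 0.04 and C5orf15 0.43 in BCL6KO minus WT on the log2 scale, all far below the VDAC1 bound, while TCF7 was not above background on every array and FSTL4 on the BCL6KO arrays alone, so no change is given for them.

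Other marker lists were also summed. T cell markers (6 measured) were 12.4 to 16.0 on the DKO-labelled arrays, 1.66 to 3.04 on the BCL6KO arrays and 67.9 to 70.4 on the WT arrays. Myeloid markers (7 measured) were 3.20 to 3.77, 0.553 to 0.609 and 14.4 to 15.8 in the same order of groups, and erythroid markers (6 measured) were 1.14 to 1.21, 0.180 to 0.209 and 0.107 to 0.117. Epithelial markers (3 measured) were 0.0101 to 0.0150, 0.0199 to 0.0291 and 0.0276 to 0.0321, and endothelial markers (2 measured) were well above background on no array.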
